A study of Mus musculus with 3 samples.

Results

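Domains longer than 1000 kb were examined in the chromatin of the developing mouse limb. The deposited table lists 4124 domains called with TopDom from Hi-C contacts, and 360 of them had a distance of more than 1000 kb between their edges. They were chosen by that length alone. These 360 long domains made up 8.73% of all domains but held 639 Mb, or 28.9%, of the 2211 Mb of sequence in domains. The tissue was fore- and hindlimb buds of wild-type embryos at day E11.5, and 3 Hi-C libraries were made as technical replicates from 1 pool of tissue. The protocol counts 8 embryos in that pool and the design text counts 10. All libraries belong to 1 group, and 1 table gives each domain's values for all libraries together. The labels also name G4 embryonic stem cells as cell type beside limb bud as source. A table of contacts holds no expression marker with which to check either label.

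A chromatin domain is a stretch of a chromosome whose parts touch each other more often than they touch the sequence outside it. Domains are commonly explained by cohesin, a ring-shaped complex that reels in chromatin loops until it is stopped, often at sites bound by CTCF. Where cohesin is held at one edge and keeps reeling in from the other side, a line of contacts, called an architectural stripe, can run from that edge across the domain. Long domains are known to lie often in gene-poor sequence or around single developmental genes with distant enhancers. Which genes lie in the domains described here was not analysed, since the only gene table used here belongs to a later genome build than mm9.

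The table has no values per library, and how many contacts each domain rests on is unknown. No SD between libraries and no test between samples can therefore be given. Length chose the members, and the domains of 1 table are not replicates of a condition, so the comparisons below are descriptions without p-values. Shares carry 95% Wilson intervals, medians carry exact order-statistic intervals, and differences carry hybrid Newcombe intervals built from these. The intervals describe the spread among domains of this table only. The comparison group throughout was the 2022 domains above 250 and up to 500 kb, the commonest lengths.

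Most long domains were not far above 1000 kb. Their median length was 1475 kb (quartiles 1150 and 2075 kb), against 400 kb for all domains. There were 128 members of up to 1250 kb, 60 of up to 1500 kb, 79 of up to 2000 kb, 58 of up to 3000 kb and 35 beyond that. At the limit itself, 14 domains of exactly 1000 kb were left out and 20 of 1025 kb were included. Of these, 3 of the 14 and 4 of the 20 were called with a stripe. Their median cosine scores were 0.649 just outside and 0.671 just inside, and their median imbalance scores were 0.343 and 0.311. All 360 members had a value in every score. The 2 domains of the table without a probability were 200 kb or shorter.

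The longest domain lay on chromosome 1 from 100550001 to 106875000 in mm9 and was 6325 kb long. It had no stripe call, with a probability of 0.13, an imbalance score of 0.330 and a cosine score of 0.185. The next 2 spanned 60375001 to 66025000 of chromosome 12 (5650 kb, probability 0.23) and 146250001 to 151650000 of chromosome 1 (5400 kb, probability 0.13). The fourth was again on chromosome 1, from 114375001 to 119425000 (5050 kb, probability 0.13). Between the first and the fourth of these lay another long domain, from 109500001 to 113150000 (3650 kb, probability 0.15). In this stretch of 18.9 Mb, 3 of the 10 domains were long, and they filled 79.6% of it without a stripe call among them. The stretch was singled out after its values were seen.

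The other 6 of the 10 longest domains were spread over 6 further chromosomes. Chromosome 5 held one spanning 58100001 to 62950000 (4850 kb), chromosome 3 one spanning 22175001 to 26975000 (4800 kb) and chromosome 4 one spanning 35300001 to 40025000 (4725 kb). Then came 66150001 to 70600000 of chromosome 16 (4450 kb), 73275001 to 77575000 of chromosome 6 (4300 kb) and 35850001 to 39950000 of chromosome 11 (4100 kb). Of these 10, only the domain on chromosome 3 was called with a stripe. All 10 had a cosine score below the median of the long domains, with a highest value of 0.559.

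**Figure D1:**
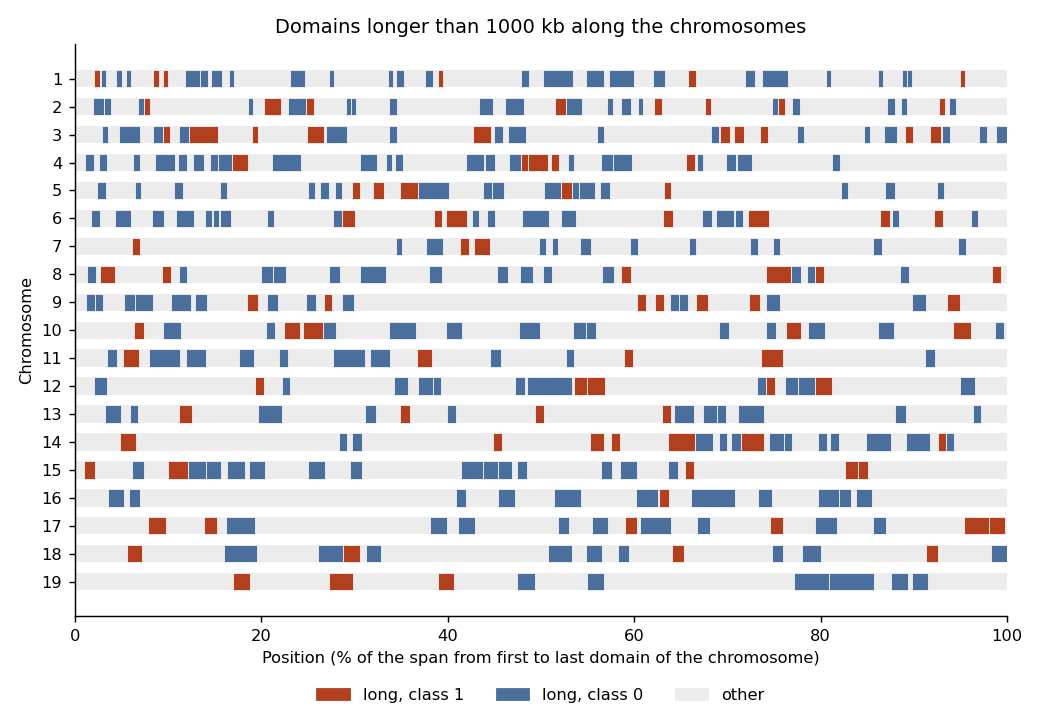
Position of the 360 long domains on chromosomes 1 to 19, as a percentage of the span from the first to the last domain of each chromosome (red, class 1; blue, class 0; grey, other domains and gaps). Long domains occur on all 19 chromosomes and thin out in the last of 5 equal sections of the span, where they hold 20.0% of the domain sequence.

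Every chromosome of the table held long domains, from 9 on chromosome 19 to 29 on chromosome 1. As a share of a chromosome's domains they were most frequent on chromosome 15, at 11.3% (19 of 168; interval 7.36 to 17.0%), followed by chromosome 4 at 11.2% (27 of 240). They were least frequent on chromosome 7, at 5.24% (14 of 267; interval 3.15 to 8.61%). Chromosome 7 was the only chromosome whose interval did not include the overall share of 8.73%. By sequence, long domains took up 38.1% of the domain sequence of chromosome 4 and 16.5% of that of chromosome 7. The longest member on chromosome 7 measured 2750 kb and the longest on chromosome 15 measured 2275 kb, so the high share of chromosome 15 came from members of moderate length. By sequence, chromosome 15 stood at 30.8%, close to the 28.9% of the whole table.

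Along the chromosomes, long domains were least frequent towards the far end. When the span from the first to the last domain of each chromosome was cut into 5 equal sections, long domains were 10.2% of domains in the first section (82 of 807) and 8.42% in the second (67 of 796). They were 10.3% in the third (80 of 776) and 8.83% in the fourth (73 of 827). In the last section they were 6.32% (58 of 918; interval 4.92 to 8.08%), and they held 20.0% of the domain sequence there, against 28.3 to 34.6% in the other sections. The last section held 16.1% of the 360 long domains (interval 12.7 to 20.3%). Of the members above 2000 kb, 10 lay in the last section and between 18 and 25 in each of the others. Mouse chromosomes carry the centromere at the low end of the coordinates, and the last section is the end away from it. No chromosome began with a long domain. Long domains were the last of the table on 2 chromosomes, at 157775001 to 159600000 on chromosome 3 and at 89275001 to 90775000 on chromosome 18.

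Long domains were also counted in intervals of 10 Mb, as a description of where they lie. Of 258 intervals, 62 held no midpoint of a long domain, 90 held 1, 62 held 2, 31 held 3 and 12 held 4. The interval with the most was on chromosome 12 between 90 and 100 Mb, with 5 midpoints and 78.0% of its sequence in long domains. Among the 12 intervals with 4, the first by position covered 110 to 120 Mb and 140 to 150 Mb of chromosome 3, then 20 to 30 Mb and 70 to 80 Mb of chromosome 4. By sequence, the fullest interval was on chromosome 12 between 60 and 70 Mb, where long domains covered 94.5%. Long domains covered 50% or more in 38 intervals and nothing in 48.

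Stripe calls were less frequent among long domains than among domains of 250-500 kb. All class 1 domains, and only they, had a random forest probability of at least 0.5, so class 1 was taken as the class called with a stripe, which the labels do not spell out. It held 101 of the 360 long domains, or 28.1% (interval 23.7 to 32.9%), against 35.1% of all domains in the table. In domains of 250-500 kb it held 38.3% (774 of 2022; interval 36.2 to 40.4%). The difference was -10.2 percentage points (interval -15.1 to -4.94), and the share was lower in long domains on 19 of 19 chromosomes, with differences from -26.9 to -0.0706 points. Against the 981 domains above 500 and up to 1000 kb, of which 34.1% were in class 1, the difference was -6.09 points (interval -11.4 to -0.439). Domains of up to 250 kb had a share of 31.3% (238 of 761; interval 28.1 to 34.7%), and this interval overlaps that of the long domains. Within the long domains the share showed no clear order of length. It was 28.1% (36 of 128) up to 1250 kb, 31.7% (19 of 60) up to 1500 kb, 26.6% (21 of 79) up to 2000 kb and 29.3% (17 of 58) up to 3000 kb. Above 3000 kb it was 22.9% (8 of 35; interval 12.1 to 39.0%). All these intervals overlap. The 101 class 1 members held 172 Mb, or 26.9% of the sequence in long domains, and their median length was 1400 kb against 1500 kb in class 0.

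The shortfall lay in the moderate calls and not in the firmest ones. Of the long domains, 62 (17.2%; interval 13.7 to 21.5%) had a probability of 0.9 or more, against 16.2% of all domains with a probability and 17.2% of those of 250-500 kb (348 of 2022). The difference from the 250-500 kb group at this stricter limit was 0.0115 points (interval -3.93 to 4.54), so the lower share of stripe calls did not hold there. Among class 1 members alone, 61.4% (62 of 101) reached 0.9, against 45.0% of class 1 domains of 250-500 kb, a difference of 16.4 points (interval 6.06 to 26.0). A probability of 1.00 was reached by 35.6% of class 1 members (36 of 101) and by 19.4% of class 1 domains of 250-500 kb. At the other end, long domains were seldom given a very low probability. Only 29 (8.06%; interval 5.67 to 11.3%) had 0.1 or less, against 19.6% of all domains with a probability and 20.8% at 250-500 kb. A value of 0.00 was held by 4 members (1.11%), against 7.25% of all with a probability and 164 of 2022 (8.11%) at 250-500 kb. The median probability of class 0 members was 0.22 (interval 0.19 to 0.27), against 0.14 (0.13 to 0.14) in class 0 of 250-500 kb.

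Some single values of the probability were held by many long domains. The commonest was 0.13, held by 42 members (11.7%), against 8.71% of all domains and 11.2% of those of 500 to 1000 kb. It was followed by 1.00 with 36 (10.0%), against 7.54% of all and 8.05% of those of 500 to 1000 kb. Next came 0.39 with 30 (8.33%), against 4.85% of all, and 0.32 with 17 (4.72%), against 0.728% of all. In domains of 250-500 kb, 0.39 was held by 3.91% and 0.32 by 0.247% (5 of 2022). The whole table had 30 domains at 0.32, so 17 of those 30 were long. The 42 members at 0.13 had imbalance scores from 0.161 to 0.387. Members at 0.39 had a median imbalance of 0.0417. These single values were singled out after they were seen. The sources used here give neither the number of trees in the forest nor the features it was given.

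**Figure D2:**
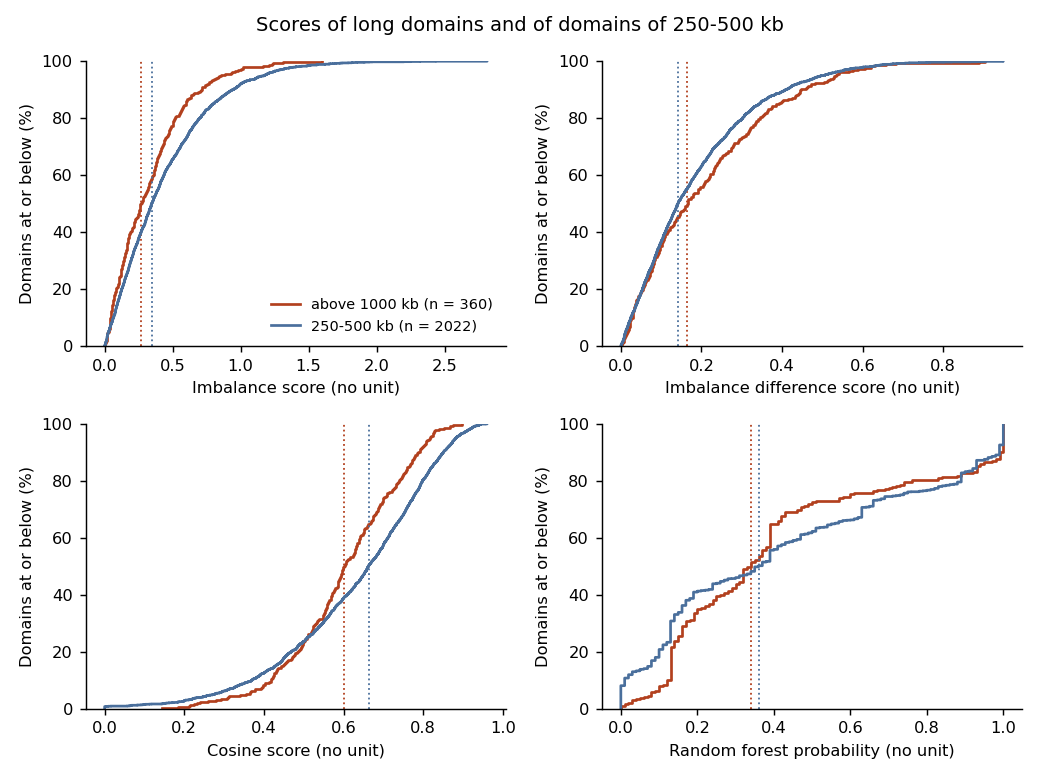
Cumulative share of domains (%) at or below each value of the imbalance score, the imbalance difference score, the cosine score and the random forest probability, for the 360 long domains (red) and the 2022 domains of 250-500 kb (blue), with dotted lines at the medians. Long domains have the lower imbalance (median 0.266 against 0.346) and cosine (0.602 against 0.663), and their curve of probability starts lower and crosses close to the medians.

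The imbalance score, which by its name describes how unequal the contacts of the sides of a domain are, was lower in long domains than in those of 250-500 kb. Its median was 0.266 (interval 0.227 to 0.322, n = 360) against 0.346 (0.330 to 0.365, n = 2022) at 250-500 kb, a difference of -0.0799 (interval -0.123 to -0.0217). The long domains had the lower median on 16 of 19 chromosomes. Against domains of 500 to 1000 kb, with a median of 0.296, the difference was -0.0304, and its interval of -0.0758 to 0.0331 includes 0. The median of domains of up to 250 kb was 0.287. Scores below 0.2 were found in 146 long domains (40.6%), against 34.2% of all domains and 30.9% of those of 250-500 kb. Scores of 0.7 or more were found in 10.8% (39 of 360), against 17.8% of all domains and 20.0% (404 of 2022) at 250-500 kb. Within the long domains the median showed no steady order with length. It was 0.271 up to 1250 kb, 0.174 between 1500 and 2000 kb, 0.312 between 2000 and 3000 kb and 0.258 above 3000 kb. The rank correlation between length and imbalance over the 360 members was -0.0405, given as a description, since all domains come from the same table.

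The imbalance difference score was not lower in long domains. Its median was 0.165 (interval 0.138 to 0.196) in long domains and 0.142 (0.136 to 0.150) at 250-500 kb, a difference of 0.0232 whose interval, -0.00547 to 0.0543, includes 0. In means the difference was 0.0218 (interval 0.00284 to 0.0407), which does not include 0. The median was higher in long domains on 12 of 19 chromosomes. Within each class the imbalance was lower and the imbalance difference higher in long domains. Class 1 long domains had a median imbalance of 0.602 (interval 0.567 to 0.659, n = 101) against 0.713 (0.690 to 0.738, n = 774) in class 1 of 250-500 kb. Their median imbalance difference was 0.400 (0.365 to 0.443) against 0.302 (0.289 to 0.312), a difference of 0.0986 (interval 0.0619 to 0.143). In class 0 the differences were -0.0424 for the imbalance (interval -0.0649 to -0.00521) and 0.0157 for the imbalance difference (interval 0.00172 to 0.0334). The imbalance difference divided by the imbalance had a median of 0.640 (interval 0.609 to 0.666) in long domains, 0.495 in domains of 500 to 1000 kb, 0.436 in domains of 250-500 kb and 0.383 in those of up to 250 kb. It continued upward within the long domains, from 0.553 up to 1250 kb to 0.719 between 2000 and 3000 kb and 0.735 above 3000 kb. The sources used here do not give the formula of either score, so the ratio is a description of the table and not of contacts.

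Long domains reached the highest probability at lower imbalance scores. All 36 members with a probability of 1.00 had an imbalance of at least 0.559, which is the lowest of the 311 such domains in the table. Their median was 0.814, against 1.18 in the 150 domains of 250-500 kb with a probability of 1.00, where the lowest was 0.639. Of the 101 class 1 members, 97 had an imbalance of 0.429 or more, and their median probability was 0.95. The other 4 had imbalance scores between 0.0765 and 0.107 and probabilities between 0.50 and 0.57. Class 0 members reached an imbalance of 0.466, and 10 of them lay above the lowest of the 97. In the 250-500 kb group 45 of 774 class 1 domains lay below 0.2. Since the forest may have been given these scores, no test of class against score was made.

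The highest imbalance among long domains was found in class 1 on chromosome 9, between 83700001 and 85225000. That domain measured 1525 kb, with an imbalance of 1.60, an imbalance difference of 0.903, the highest of all members, and a direction of FALSE. Chromosome 3 held the next by imbalance, at 142425001 to 143875000 (1450 kb, imbalance 1.31) and 17775001 to 19000000 (1225 kb, imbalance 1.24). The second highest imbalance difference, 0.889, was also on chromosome 9, from 78450001 to 79575000. These 4 domains all had a probability of 1.00 and a direction of FALSE. At the other extreme stood chromosome 8, where the class 0 domain spanning 42500001 to 46100000 (3600 kb) had an imbalance of 2.18e-05 with a probability of 0.37. The next lowest were 0.00239 on chromosome 15, spanning 44675001 to 46950000, and 0.00406 on chromosome 2, spanning 6375001 to 8575000.

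The cosine score was lower in long domains than in those of 250-500 kb, and it fell with length among them. Its median was 0.602 (interval 0.587 to 0.629) against 0.663 (0.654 to 0.675) at 250-500 kb, a difference of -0.0605 (interval -0.0796 to -0.0324). The median was lower in long domains on 17 of 19 chromosomes. Domains of 500 to 1000 kb had a median of 0.663, and their difference from the shorter group had an interval of -0.0213 to 0.0173. The median of domains of up to 250 kb was 0.626 (interval 0.601 to 0.654), and this interval overlaps that of the long domains. Inside the long domains the median was 0.660 (0.616 to 0.705) up to 1250 kb, 0.630 (0.587 to 0.677) up to 1500 kb, 0.607 (0.569 to 0.652) up to 2000 kb and 0.586 (0.555 to 0.599) up to 3000 kb. Above 3000 kb it was 0.475 (0.423 to 0.549), and 31 of these 35 domains lay below 0.6. The rank correlation of length with cosine was -0.329 over the 360 members and -0.0175 over the 2022 domains of 250-500 kb, where lengths span a narrower range.

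Compared with 250-500 kb, the lower median cosine was found in class 0 and not in class 1. Class 0 long domains had a median cosine of 0.607 (interval 0.588 to 0.640, n = 259) against 0.711 (0.699 to 0.727, n = 1248) in class 0 of 250-500 kb, a difference of -0.104 (interval -0.129 to -0.0692). Class 1 long domains had 0.590 (0.562 to 0.616) against 0.589 (0.570 to 0.604), a difference of 0.000774 (interval -0.0307 to 0.0335). The medians of the classes thus lay at 0.590 and 0.607 in long domains, closer than at 250-500 kb. Among the long domains, the rank correlation of length with cosine was -0.247 in class 1 (n = 101) and -0.360 in class 0. The lowest cosine of a long domain was 0.144, on chromosome 6 from 131450001 to 132550000. The next lowest were the longest domain of all and, with 0.211, a class 1 member spanning 59475001 to 60650000 of chromosome 6. The highest cosine scores were 0.897 at 170700001 to 172050000 of chromosome 2, 0.894 at 104825001 to 105900000 of chromosome 4 and 0.876 at 44675001 to 45825000 of chromosome 5, all in class 0 with probabilities of 0.1 or less.

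**Figure D3:**
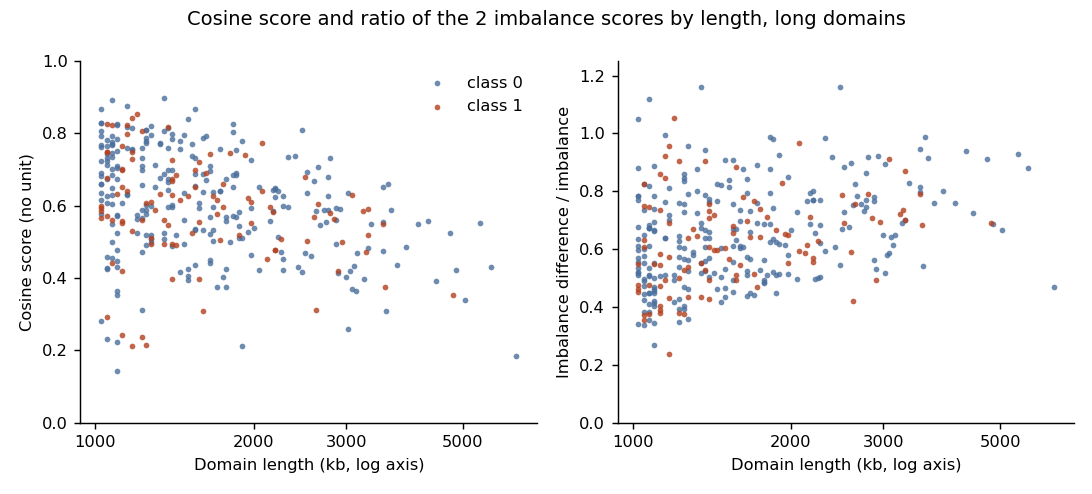
Cosine score (left) and imbalance difference divided by imbalance (right) of the 360 long domains against their length in kb on a log axis, class 0 in blue and class 1 in red. The cosine median goes from 0.660 up to 1250 kb to 0.475 above 3000 kb, and the ratio goes from 0.553 to 0.735.

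The 2 longest class 1 members combined a probability of 1.00 with a low cosine. The domain on chromosome 3 of 4800 kb had a probability of 1.00, an imbalance of 0.766 and a cosine of 0.355. The second lay on chromosome 14 from 81250001 to 84800000, with 3550 kb, a probability of 1.00, an imbalance of 0.841 and a cosine of 0.377. The third lay on chromosome 8 from 98450001 to 101975000, with 3525 kb, a probability of 0.94 and a cosine of 0.551. The remaining 2 of the 5 longest, both 3300 kb, were on chromosome 6. The one spanning 61300001 to 64600000 had a probability of 0.69 and a cosine of 0.590. The one spanning 108775001 to 112075000 had a probability of 1.00 and a cosine of 0.518. The first 3 had direction TRUE and the other 2 had FALSE.

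Direction was split almost evenly. Of the long domains, 176 (48.9%; interval 43.8 to 54.0%) had direction TRUE, against 49.2% of all domains and 49.8% at 250-500 kb. The difference from the latter was -0.864 points (interval -6.43 to 4.73). In class 1 it was 48 of 101. Up to 2000 kb the TRUE share was between 43.3 and 46.1% in each length group. It was 60.3% (35 of 58) between 2000 and 3000 kb and 60.0% (21 of 35) above 3000 kb, with intervals of 47.5 to 71.9% and 43.6 to 74.4% that include an even split.

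The tuned edges of long domains lay slightly less far inside than those of domains of 250-500 kb, but not less far than those of all shorter domains. The table gives, beside the edges on a grid of 25 kb, a second pair on a grid of 10 kb. In long domains the tuned start and the tuned end each lay on average 27.2 kb inside (SE over domains 1.33 and 1.37), against 32.2 and 32.6 kb at 250-500 kb. The total of both sides had a median of 60 kb (interval 50 to 65 kb) against 70 kb (65 to 70 kb), a difference of -10 kb (interval -20 to -2.93). The median total was also 60 kb (60 to 65 kb) in domains of 500 to 1000 kb, and it was 50 kb (50 to 55 kb) in those of up to 250 kb. The mean total was lower in long domains on 17 of 19 chromosomes. Measured against length, tuning took off a median of 3.41% of a long domain and 17.6% of a domain of 250-500 kb. Tuned edges outside the domain were more frequent in long domains than in those of 250-500 kb. At the start they were found in 11.7% (42 of 360) against 6.08%, and at the end in 12.2% (44 of 360) against 5.98%. Over all domains these shares were 8.49% and 7.83%. In domains of up to 250 kb they were 14.2% and 12.2%, no lower than in long domains. In 22 members the tuned domain was longer than the original one. With tuned edges the median length was 1400 kb, 36 members fell to 1000 kb or less, and 3 other domains rose above it.

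The tuned edges moved with direction in long domains as well. In class 1 members of direction TRUE, the mean inward shift was 25.7 kb at the start (SE 3.13, n = 48) and 35.9 kb at the end (SE 2.85). In class 1 members of direction FALSE, it was 34.2 kb at the start (SE 3.57, n = 53) and 22.0 kb at the end (SE 3.45). Start minus end was -10.2 kb in TRUE and 12.3 kb in FALSE, a difference of -22.5 kb (interval -35.3 to -9.62). Class 1 domains of 250-500 kb gave -14.9 kb (interval -19.4 to -10.4), and the 2 intervals overlap. In class 0 members the difference in means was -8.51 kb, with an interval of -17.9 to 0.898 kb that includes 0. In medians it was -15 kb (interval -26.2 to -0.858 kb), which does not include 0. Class 0 domains of 250-500 kb had a mean start minus end of -5.34 kb in TRUE and 2.67 kb in FALSE.

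Gaps of sequence outside any domain were less frequent beside long domains. A gap lay on at least 1 side of 117 long domains (32.5%; interval 27.9 to 37.5%), against 41.9% of all domains and 41.8% of those of 250-500 kb (846 of 2022). The difference was -9.34 points (interval -14.5 to -3.90), with the lower share in long domains on 15 of 19 chromosomes. Against domains of 500 to 1000 kb, at 35.2%, the difference was -2.67 points, with an interval of -8.21 to 3.13 that includes 0. A gap on both sides was found beside 5 long domains (1.39%; interval 0.595 to 3.21%), against 7.57% of all domains and 7.12% at 250-500 kb (144 of 2022). Where a gap was present its median width was 100 kb (interval 75 to 125 kb, n = 122 sides) against 150 kb (125 to 150 kb, n = 990) at 250-500 kb. It was 125 kb over all domains and at 500 to 1000 kb. From the latter the difference was -25 kb, with an interval of -50 to 10.4 kb that includes 0. Both edges were shared with a neighbour in 241 members. In class 1 the share with a gap was 35.6% and in class 0 it was 31.3%.

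The 5 long domains with a gap on both sides were named after they had been counted. They spanned 21400001 to 22425000 of chromosome 1, 104825001 to 105900000 of chromosome 4, 69975001 to 71850000 of chromosome 5, 25775001 to 27000000 of chromosome 12 and 68650001 to 69675000 of chromosome 18. All had direction TRUE, and those on chromosomes 1 and 12 were in class 1. Apart from the domain of 1875 kb on chromosome 5, none was longer than 1225 kb. The gaps beside them measured between 50 and 500 kb, and the widest was downstream of the domain on chromosome 4.

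**Figure D4:**
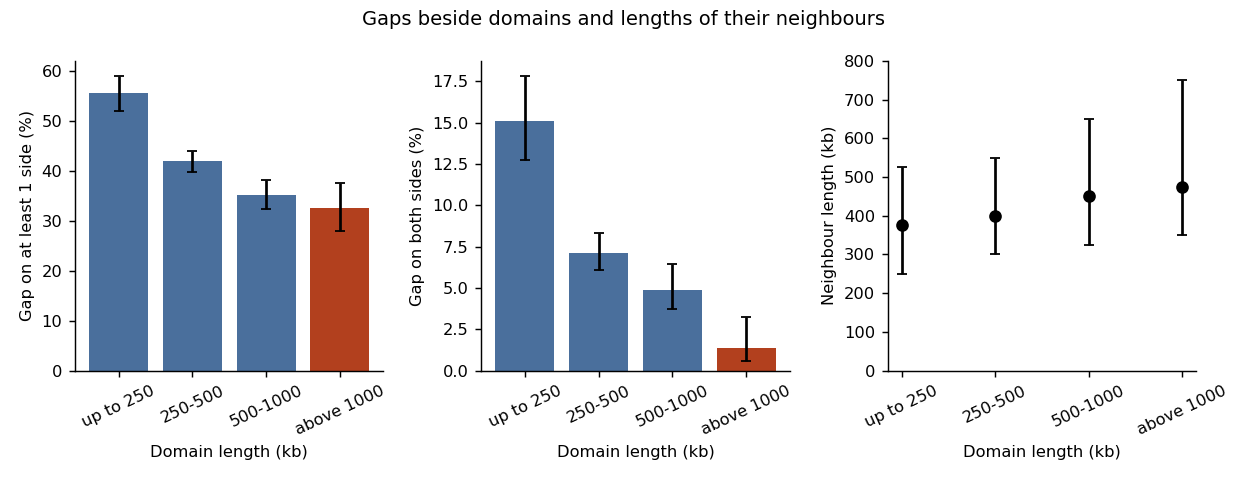
Share of domains (%) with a gap on at least 1 side (left) and on both sides (middle), with 95% Wilson intervals, and the median length of neighbouring domains in kb with quartiles (right), by domain length. From 250-500 kb to above 1000 kb the share with a gap goes from 41.8 to 32.5%, the share with a gap on both sides from 7.12 to 1.39% and the neighbours' median from 400 to 475 kb.

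Long domains had longer neighbours than domains of 250-500 kb. Over the 718 neighbours before and after a long domain, the median length was 475 kb (interval 450 to 500 kb; quartiles 350 and 750 kb), against 400 kb (375 to 400 kb; quartiles 300 and 550 kb) over the 4033 neighbours of domains of 250-500 kb. The difference was 75 kb (interval 50 to 110 kb), and the median was higher beside long domains on 17 of 19 chromosomes. The means were 669 and 501 kb. Long neighbours did not make all of this difference. Among neighbours of up to 1000 kb the medians were 425 kb (n = 612) and 375 kb (n = 3745), a difference of 50 kb (interval 50 to 75 kb). Domains of 500 to 1000 kb had neighbours with a median of 450 kb, in between. Against that group the difference was 25 kb (interval 0 to 60.4 kb). Among neighbours of up to 1000 kb it was also 25 kb (interval 0 to 50 kb). Both intervals reach 0. Neighbours of up to 250 kb held 13.9% of places beside long domains (100 of 718). They held 18.4% (742 of 4033) beside domains of 250-500 kb and 18.3% over all neighbour places. Beside domains of 500 to 1000 kb they held 14.4%. The difference between those and long domains was -0.424 points, with an interval of -3.27 to 2.68 that includes 0. A domain counts in these figures once for each neighbour it has, so the intervals are approximate.

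Another long domain held a larger share of the neighbour places of long domains than of those of domains of 250-500 kb. Of the 718 neighbour places of long domains, 106 (14.8%; interval 12.4 to 17.5%) were held by another long domain, against 8.75% of the neighbour places of all domains and 7.14% (288 of 4033; interval 6.39 to 7.98%) of those of domains of 250-500 kb. The difference from the latter was 7.62 points (interval 5.07 to 10.5), and the share was higher beside long domains on 13 of 19 chromosomes. Beside domains of 500 to 1000 kb the share was 11.4%, which left a difference of 3.32 points (interval 0.494 to 6.41). By length, the share was lowest for members of up to 1250 kb, at 10.9% (28 of 256). It was 18.5% (29 of 157) between 1500 and 2000 kb, 21.6% (25 of 116) between 2000 and 3000 kb and 12.9% (9 of 70) above 3000 kb. At least 1 long neighbour was found for 99 long domains (27.5%), against 16.2% of all domains and 13.6% of domains of 250-500 kb. In domains of 500 to 1000 kb this share was 20.9%, in between.

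The excess reached beyond the nearest neighbour. The share of long domains was 13.7% (98 of 716; interval 11.4 to 16.4%) 2 places away from a long domain and 12.3% (88 of 713; interval 10.1 to 15.0%) 3 places away. It was 11.0% 4 places away, 11.6% 5 places away and 7.63% (interval 5.89 to 9.82%) 6 places away. Around domains of 250-500 kb it was 7.95% 2 places away, 8.21% 3 places away and 8.97% 5 places away. The intervals around the 2 kinds of domain did not overlap up to 3 places away and overlapped from 4 places on.

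**Figure D5:**
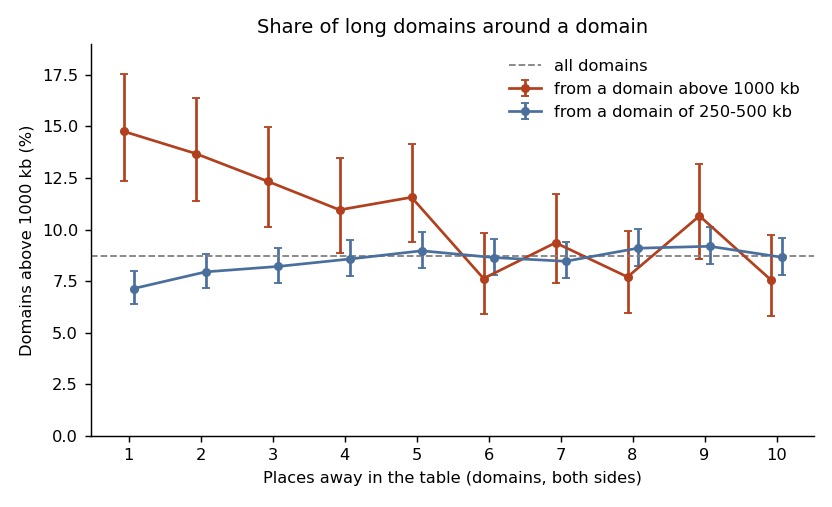
Share of domains above 1000 kb (%) among those 1 to 10 places before or after a long domain (red) and a domain of 250-500 kb (blue), with 95% Wilson intervals, and the share among all domains (dashed, 8.73%). The share around long domains goes from 14.8% at 1 place to 7.63% at 6 places.

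The 360 members fell into 261 single long domains, 40 runs of 2, 5 runs of 3 and 1 run of 4. There were 53 neighbouring pairs, on 17 chromosomes, of which 45 shared an edge and 8 were separated by a gap. Both members were class 0 in 24 pairs, both were class 1 in 4, and 25 were mixed. Directions were alike in 30 pairs and unlike in 23, and among the unlike pairs TRUE came before FALSE in 14. The class 1 share among all neighbours of long domains was 36.5% (262 of 718), against 35.1% over all neighbour places and 33.8% beside domains of 250-500 kb, a difference of 2.69 points whose interval, -1.05 to 6.56, includes 0. Stripe calls were thus not shown to be rarer or commoner beside a long domain.

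The run of 4 lay on chromosome 5 from 78225001 to 86450000. Its members measured 2725, 1875, 1100 and 2525 kb and had probabilities of 0.32, 0.73, 0.39 and 0.39, so only the second was in class 1. On chromosome 4, runs of 3 lay from 25200001 to 31400000 and from 74150001 to 80450000. The latter held 2 class 1 domains, of 1125 kb (probability 0.88) and 3225 kb (probability 1.00), and all members of both runs had direction FALSE. The run on chromosome 12 from 93100001 to 99100000 held 1 class 1 domain, the last, with a probability of 0.62. On chromosome 15 the run from 13000001 to 18750000 began with a class 1 domain (probability 0.93), and the run from 44675001 to 50100000 held none. That last run began with the domain of very low imbalance named above, and its second member had an imbalance of 0.0192. No gap interrupted any of these 6 runs, which spanned between 5425 and 8225 kb.

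In mean and median length, the neighbours of class 1 long domains differed by side and direction. In those of direction TRUE the downstream neighbour averaged 808 kb and the upstream one 553 kb (n = 48). With direction FALSE the means were 805 kb upstream and 545 kb downstream (n = 53). Downstream minus upstream length averaged 255 kb with TRUE. With FALSE it averaged -260 kb, and these means lay 515 kb apart (interval 175 to 855 kb). In medians it was 125 and -75 kb, a difference of 200 kb (interval 23.2 to 437 kb). The longer neighbour was downstream in 27 of 48 TRUE members and upstream in 30 of 53 FALSE members. How far single very long neighbours weighed on the means was not tested. A long neighbour was found upstream of 14 of 53 FALSE members (interval 16.4 to 39.6%) and downstream of 5 (interval 4.10 to 20.3%). Among the TRUE members, one was found downstream of 9 of 48 (interval 10.2 to 31.9%) and upstream of 5 (interval 4.53 to 22.2%). In each direction the intervals of the sides overlap. Over all long domains, another long domain held 14.8% of neighbour places. Class 1 domains of 250-500 kb showed a difference of 167 kb in means (interval 88.3 to 245 kb), which overlaps. In class 0 long domains the difference was -5.72 kb (interval -205 to 194 kb).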

How the data were processed

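Hi-C was performed on 3 libraries of 1 group, and 1 deposited table of 4124 domains on chromosomes 1 to 19 was used. The submitters' processing notes name Juicer, BWA and build mm9. The deposited table's name gives TopDom with a quantile threshold of 0.98 and a random forest threshold of 0.5. Its imbalance, imbalance difference and cosine values are deposited scores of unstated formula, and the deposited probability is a fraction. What direction TRUE stands for is not stated.

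Neighbours were adjacent domains on the same chromosome, and upstream means lower coordinates. Starts count from 1. Shares, medians and 95% intervals were computed with Python 3.11.15, pandas 2.3.3 and SciPy 1.17.1, and the functions were tested on simulated data. The members, comparisons and lists were chosen with earlier results of these data known. Regions named are the 10 longest, the 5 longest in class 1, score extremes, runs of 3 or more, extreme chromosomes and the fullest intervals of 10 Mb. Alternatives included a limit of 1500 kb, another reference group, means, a stricter probability and each chromosome left out. No sequence is printed, since no genome of build mm9 was used here.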

Additional observations from a re-analysis of the deposited data

How the results depend on the processing

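No paired analysis was possible because the 3 libraries form 1 group and share a table, which also leaves no library that could be left out. Of 250 alternatives, 241 stayed inside the interval of the reported value, which is a difference between long domains and those of 250-500 kb or, for position, the share of long domains in the last section of the chromosomes. All 209 that left out 1 chromosome did so, and each of these kept most of the same domains. Among the other 41, 8 moved outside the interval and 1 reversed a difference whose interval excluded 0. A change of sign counted as inside where it stayed within a reported interval that includes 0. The lower class 1 share became 0.0115 points at a probability of 0.9 or more, which ends it. The cause of this and of the changes below was not tested. Against domains of 500 to 1000 kb the difference in median probability was 0.02 in place of -0.02, both with intervals that include 0. For direction it was 1.79 points in place of -0.864, again with intervals that include 0. The differences in tuned edges, gaps, neighbour lengths and long neighbours shrank, to 0 kb, -2.67 points, 25 kb and 3.32 points. The interval for neighbour lengths, 0 to 60.4 kb, reaches 0. For the imbalance score the difference shrank to -0.0304, inside the reported interval but with one of its own, -0.0758 to 0.0331, that includes 0. For the imbalance difference score it was 0.0185 (interval -0.0107 to 0.0504). The cosine difference was -0.0605 against domains of 500 to 1000 kb (interval -0.0815 to -0.0286), -0.0921 for domains above 1500 kb and -0.0295 for means. The neighbour difference was 167 kb for means. The tuned-edge difference was -5 kb above 1500 kb, with an interval of -15 to 0 kb. The interval of the imbalance difference score no longer included 0 without chromosome 5 (0.0248; 0.000998 to 0.0612) or 7 (0.0256; 0.00158 to 0.0620). The means of neighbour lengths and of tuned edges, and the chromosomes left out for position, were chosen after seeing the data. Unknown depth limits every value.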
